A study of Arabidopsis thaliana with 10 samples.

Results

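The intergenic long noncoding RNAs (lncRNAs) of Arabidopsis described here are transcripts that the authors placed between genes. They were taken from the authors' catalogue by its genomic class, intergenic, leaving out loci with a listed binding of the light-signalling factors PIF4 or PIF5, loci matched to a stress-related RNA structure, and a few loci by name. This left 222 of the 1362 catalogued loci that carry expression values. Of these, 36 were annotated loci (of 48 in the class) and 186 were predicted loci (of 226), which the authors rank as level 1 (76 loci) and level 2 (110 loci). The rest of the catalogue holds 417 antisense loci, 345 of the class called cis, 177 in transposable elements, 127 small RNA precursors and 22 pseudogenes.

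The plants were wild-type Col-0 seedlings, 12 days old, grown on agar. The fraction sequenced was poly(A)- RNA, which is total RNA after repeated removal of polyadenylated RNA and of ribosomal RNA. Of the 9 conditions, with 1 library each, 1 was the untreated control, sampled at 3 h. The others were heat at 37 °C, cold at 4 °C, drought imitated with 300 mM mannitol, which lowers the water potential of the medium, and salt as 200 mM NaCl, all sampled after 3 h and again after 12 h. The control was not sampled at 12 h, so in every 12 h library stress and the passage of time cannot be told apart. No condition has a replicate. The RNA came from whole seedlings, so fewer cells that express a locus and less RNA per cell cannot be told apart either, and the tables used hold no marker gene of a tissue. Another sample, total RNA of mixed tissues, was not used.

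Intergenic lncRNAs are made from their own promoters in the space between genes. In plants some are transcribed by RNA polymerase II, capped and polyadenylated, while others, such as small nuclear and related RNAs, end without a poly(A) tail. Known plant members of the wider group act as decoys for microRNAs, as guides or scaffolds for chromatin proteins, or in the response to drought and low phosphate, and most have no known role. Of 14 such well-studied noncoding RNAs looked for by identifier, 3 are in the catalogue, all in other classes, and 0 are among the 222 loci, and other loci were not looked up for a known role.

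The letters of 6 short predicted loci are shown because the results below turn on them. level2_lnc-325 and level1_lnc-20 were read mainly in drought, level2_lnc-409 in heat at 12 h alone, level2_lnc-362 in drought alone, level2_lnc-333 mainly in cold at 12 h, and level2_lnc-164 was the second most read predicted locus and lower in 5 stress libraries. Each is the genomic span from the deposited start to the deposited end, 5′ to 3′ on the locus' own strand, read from the TAIR10.1 assembly in RefSeq. Capitals mark the intron of level2_lnc-409, the only locus of the 6 with an intron, and its span of 237 bases holds 158 nt of exon.
level2_lnc-325: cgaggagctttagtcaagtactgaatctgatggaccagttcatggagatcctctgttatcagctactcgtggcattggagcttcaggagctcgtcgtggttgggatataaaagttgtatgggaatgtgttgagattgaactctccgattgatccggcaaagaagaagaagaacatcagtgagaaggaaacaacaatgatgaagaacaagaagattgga
level1_lnc-20: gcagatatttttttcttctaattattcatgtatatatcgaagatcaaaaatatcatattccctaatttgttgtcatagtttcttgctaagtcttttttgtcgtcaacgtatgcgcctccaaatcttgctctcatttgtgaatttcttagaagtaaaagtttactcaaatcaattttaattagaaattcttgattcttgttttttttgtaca
level2_lnc-409: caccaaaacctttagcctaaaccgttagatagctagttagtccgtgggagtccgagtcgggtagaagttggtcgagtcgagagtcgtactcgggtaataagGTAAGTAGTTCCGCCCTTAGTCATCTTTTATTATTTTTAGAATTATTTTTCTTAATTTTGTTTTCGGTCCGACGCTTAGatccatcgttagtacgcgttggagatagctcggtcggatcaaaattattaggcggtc
level2_lnc-362: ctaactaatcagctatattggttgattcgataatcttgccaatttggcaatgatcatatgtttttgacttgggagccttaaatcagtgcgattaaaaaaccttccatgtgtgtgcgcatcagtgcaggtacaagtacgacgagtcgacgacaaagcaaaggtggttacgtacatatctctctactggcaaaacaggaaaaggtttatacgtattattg
level2_lnc-333: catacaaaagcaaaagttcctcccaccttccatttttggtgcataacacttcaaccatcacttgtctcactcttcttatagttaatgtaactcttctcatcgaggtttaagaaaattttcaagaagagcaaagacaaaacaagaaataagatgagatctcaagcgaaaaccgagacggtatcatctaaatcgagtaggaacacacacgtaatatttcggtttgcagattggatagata
level2_lnc-164: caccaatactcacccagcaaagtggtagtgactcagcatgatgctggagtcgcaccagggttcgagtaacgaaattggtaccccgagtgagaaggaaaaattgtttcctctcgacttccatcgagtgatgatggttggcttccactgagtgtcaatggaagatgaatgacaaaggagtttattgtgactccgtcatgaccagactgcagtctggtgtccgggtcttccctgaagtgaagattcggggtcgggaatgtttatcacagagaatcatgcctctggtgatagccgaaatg

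These loci lie at chr3:11757279-11757496 on the plus strand (level2_lnc-325), chr1:10022592-10022802 on the plus strand (level1_lnc-20) and chr4:3415752-3415988 on the plus strand (level2_lnc-409). The others lie at chr3:18057674-18057891 on the minus strand (level2_lnc-362), chr3:12655778-12656015 on the minus strand (level2_lnc-333) and chr1:29427935-29428230 on the plus strand (level2_lnc-164). Their G+C content runs from 27.5% in level1_lnc-20 to 48.6% in level2_lnc-164, against a median of 34.2% over the 186 predicted loci.

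All values are RPKM, reads per kilobase of exon, scaled to a fixed number of mapped reads, from which whole reads were recovered. The depth implied by the values was 17.6 M mapped reads in salt at 12 h, the lowest, 31.5 M at the median and 37.0 M in heat at 3 h, the highest. The catalogue as a whole took 10399 to 22293 reads per library, and the 222 loci took 2.11% to 4.12% of these. The predicted values came out whole at 2790 of 2790 non-zero entries. The deposited annotated values fit whole reads at only 79 of 1922 entries (4.11%) in the row where they stand, and at 1922 of 1922 once re-matched to loci by the number in the locus identifier, so the annotated values below are the re-matched ones. Annotated and predicted loci are kept apart. Of the 36 annotated loci, 7 held 0 reads in every library, and for these the re-matching rests on the order alone.

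Most intergenic loci were barely read. At least 1 read in any of the 9 libraries fell on 160 of the 222 loci (72.1%, exact 95% interval 65.7 to 77.9%), and at least 10 reads in 1 library fell on 49 (22.1%). Of the annotated loci 29 of 36 were read (80.6%), below the 90.8% of the other annotated lncRNAs, and of the predicted loci 131 of 186 (70.4%), below the 80.6% of the other predicted lncRNAs. The exact 95% intervals of the annotated shares, 64.0 to 91.8% and 87.3 to 93.6%, overlap, while those of the predicted shares, 63.3 to 76.9% and 77.6 to 83.3%, do not. The low share is not particular to these predicted loci. It was 69.6% in predicted transposable element loci and 72.5% in the predicted intergenic loci left out, against 85.2% in antisense, 82.7% in cis and 79.1% in small RNA precursors. At least 10 reads in 1 library fell on 23.7% of the predicted intergenic and 23.2% of the other predicted loci. Loci are not replicates of a condition, so these shares describe the catalogue and were not tested. A locus with 0 reads was not detectable at this depth, and a count of 0 allows up to 3 reads in a library.

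The annotated loci were the lower set. Together they held 410 reads over the 9 libraries, of which the 5 most read loci took 58.8%, and none reached 1 RPKM in any library. The 186 predicted loci held 3476 reads, the 5 most read loci took 34.9%, and 57 reached 1 RPKM in some library. Predicted loci are also shorter, with a median exon length of 305 nt (97 to 940 nt) against 616 nt (210 to 1969 nt), and 84.4% of them have only 1 exon against 33.3% of the annotated ones. Per length, the median over loci of the mean RPKM of the 9 libraries was 0.0737 for the predicted and 0.0318 for the annotated loci. The authors class 58.3% of the annotated loci as Poly(A)+ and 2.78% as Poly(A)-, against 22.0% and 21.0% of the predicted ones. The RNA sequenced was poly(A)-, and whether this bears on the levels was not tested. Few loci were read throughout: 12 held reads in all 9 libraries and 41 in exactly 1, of which 26 were in a 12 h library.

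AT1G69252 was the most read annotated locus, with 84 reads, on chromosome 1 and 1055 bp from AT1G69250, a gene on the same strand for an RNA-binding protein of the nuclear transport factor 2 family. It held 2 reads in control, 16 in cold at 3 h and 10 at 12 h, 2 and 0 in heat, 6 and 18 in drought, and 21 and 9 in salt. Salt, drought and cold all lay above the control and heat did not. The ratio of RPKM to control was 8.39 in salt at 3 h (exact 95% counting interval 2.05 to 73.8) and 10.8 in drought at 12 h (2.58 to 95.8), and these intervals cover counting error only. On the log2(RPKM + 1) scale used for calls below, the same differences were 0.64 and 0.79, under 1.

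AT4G02005 held 53 reads and had its highest level in heat. It had 1 read in control, 1 in cold at 3 h and 5 at 12 h, 8 and 20 in heat, 9 and 3 in drought, and 1 and 5 in salt. The ratio to control in heat at 12 h was 14.7 (2.35 to 608), an interval so wide because the control held 1 read. AT1G22403, 1599 bp from the glycosyltransferase gene UGT85A1, held 46 reads: 1 in control, 4 and 8 in cold (3 h and then 12 h), 5 and 11 in heat, 9 and 2 in drought, and 3 and 3 in salt. Its stress libraries were all above its control of 0.0348 RPKM, with drought at 3 h the highest at 0.302 RPKM and heat at 12 h next at 0.281.

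AT1G52347 had 0 reads in control, 1 and 5 in cold (3 h and then 12 h), 1 and 4 in heat, 2 and 4 in drought, and 6 and 10 in salt. Salt at 12 h was its highest library, at 0.905 RPKM, the highest level of any annotated intergenic locus in any library. AT5G43403, which lies 1442 bp from a gene of the defensin-like family, ran the other way. It held 8 reads in control, 6 and 2 in cold, 1 and 0 in heat, 2 and 3 in drought, and 3 and 0 in salt, so the control library was its highest. All 5 loci have the marks H3K36me3 and H3K4me3, typical of transcribed genes, in the authors' list.

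Not every predicted locus lay free of other genes. In the RefSeq annotation of TAIR10.1, 88 of the 186 predicted intergenic loci overlapped another gene by at least 1 base, against 1 of the 36 annotated ones. On the same strand, 24 overlapped a protein-coding gene and 43 a noncoding gene or pseudogene. On the opposite strand alone, 6 overlapped a coding gene and 15 another gene, and 98 overlapped none. The sources used here do not give the authors' gene set, so the label intergenic is theirs. Of the 88 loci, 31 overlapped a coding gene on either strand. The others overlapped only noncoding genes or pseudogenes, which need not go against that label. The 88 loci carried 78.5% of all reads on predicted loci. The sources do not say whether the counting used the strand either, so reads of a locus and of an overlapping gene cannot be told apart.

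**Figure D1:**
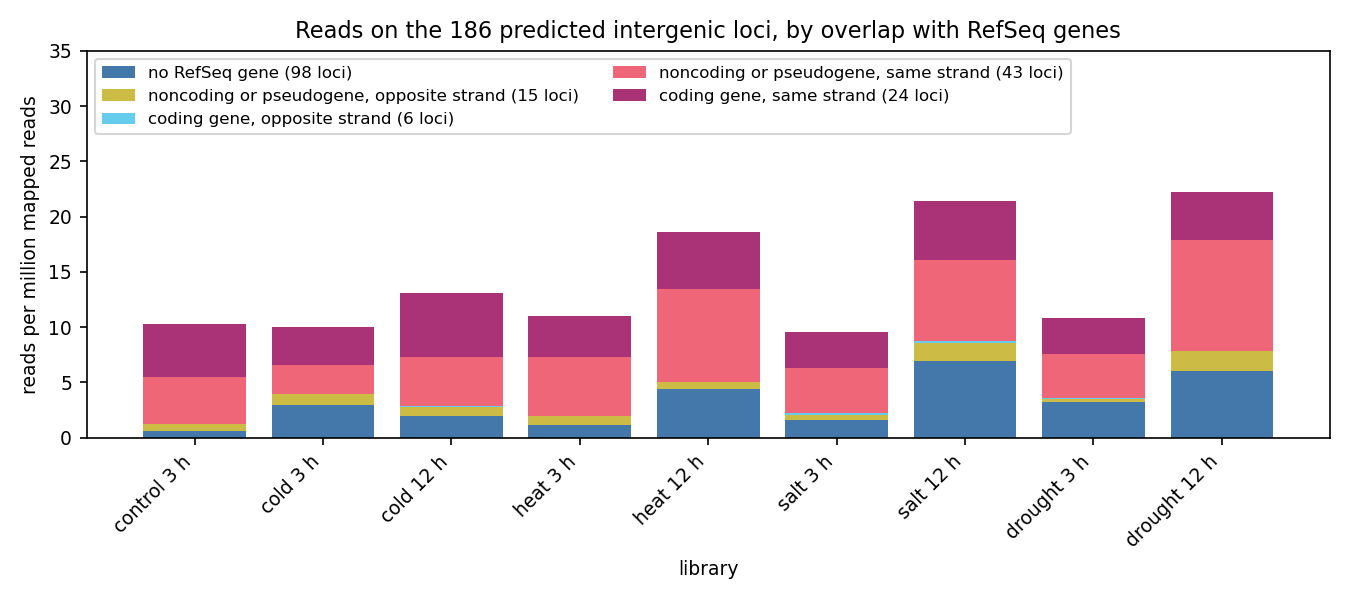
Reads per 1 M mapped reads (RPM, vertical axis) on the 186 predicted intergenic loci in each of the 9 libraries (horizontal axis), stacked by the kind of RefSeq gene that overlaps the locus. The 98 loci that no RefSeq gene overlaps run from 0.556 RPM in control to 6.94 in salt at 12 h.

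The 98 predicted loci with no overlapping gene held few reads in control. Their summed level was 0.556 RPM in control, 2.95 and 1.95 in cold (3 h and then 12 h), 1.16 and 4.42 in heat, 3.18 and 5.99 in drought, and 1.55 and 6.94 in salt. Every stress library was above control, and the 12 h library above the 3 h library in heat, salt and drought but not in cold. The 24 loci that share a strand with a coding gene held 4.76 RPM in control and 3.20 (salt at 3 h) to 5.72 (cold at 12 h) under stress, but this rests on level1_lnc-280. With it, 3 of the 8 stress libraries lay above control. Without it, an alternative chosen after seeing the data, the other 23 held 0.516 RPM in control. Under stress they held 1.13 (heat at 3 h) to 5.06 (cold at 12 h), above control in 8 of 8 libraries. level1_lnc-280 had its highest level in control, so leaving it out lowers the control sum most.

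Summed over all 222 loci, the level was 10.9 RPM in control, 11.1 and 14.8 in cold (3 h and then 12 h), 11.9 and 20.2 in heat, 12.6 and 25.1 in drought, and 11.3 and 24.3 in salt. The exact 95% counting intervals of the 3 h libraries overlap that of the control (9.63 to 12.2), and those of the 12 h libraries do not, the nearest being 13.5 to 16.2 in cold. The overlap at 3 h rests on 1 locus, level1_lnc-280, which is described below. Without it, an alternative chosen after seeing the data, the sum was 6.63 RPM in control (5.66 to 7.71) and the lowest stress library, heat at 3 h, stood at 9.31 (8.36 to 10.3), so that no interval of a stress library overlapped that of the control. That locus had its highest level in control, so leaving it out lowers the control sum most. The 12 h library was above the 3 h library in 4 of 4 stresses, by a mean of 9.38 RPM (SD 4.33, n = 4 stresses). The exact two-sided permutation p was 0.125, the smallest that 4 pairs allow. The other loci of the catalogue, without AT1G15405, moved the same way in 4 of 4 stresses, by a mean of 145 RPM (SD 47.3). Whether the 2 sets differ in this was not tested.

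**Figure D2:**
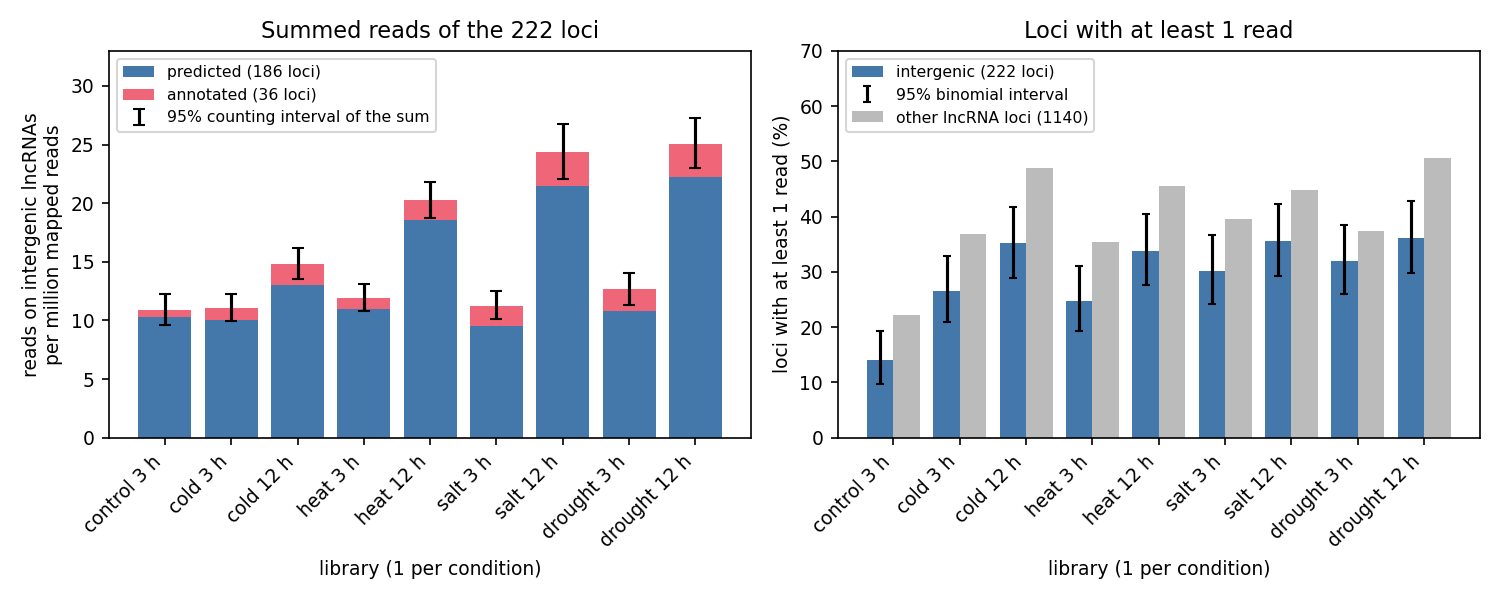
Left, reads per 1 M mapped reads (RPM) on the 222 intergenic loci in each library, annotated on top of predicted, with the exact 95% counting interval of the sum. Right, the percentage of intergenic loci and of the 1140 other lncRNA loci with at least 1 read in each library, with exact binomial 95% intervals for the former; 14.0% of intergenic loci had a read in control and 36% in drought at 12 h.

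More loci were read under stress as well. In control 31 loci held a read, at 3 h of stress 55 (heat) to 71 (drought), and at 12 h 75 (heat) to 80 (drought). In the 8 stress libraries together, 129 loci held reads that had none in control. Only 1 locus held reads in control and none under stress. This split sets 8 libraries against 1, so the stress side had more chances of a read whatever the treatment. It therefore cannot show an effect of stress, and it was not tested. Over the other 1140 lncRNA loci the share with a read was 22.2% in control and 50.5% in drought at 12 h. The annotated loci alone held 0.595 RPM in control and 0.918 (heat at 3 h) to 2.90 (salt at 12 h) under stress.

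Each stress library was then compared with the control library locus by locus. A locus is called higher or lower where its log2(RPKM + 1) differs by at least 1, which is 2-fold on that scale. A locus under 1 RPKM in control cannot be called lower by this rule, and one under 1 RPKM in the stress library cannot be called higher. With 1 library a condition, a call is a difference between 2 libraries and carries no p-value, and the 8 comparisons share their control library. Since no annotated intergenic locus reached 1 RPKM, all calls below are of predicted loci.

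In cold, 5 loci were higher at 3 h, which is 2.25% of the 222 against 2.2% of the whole catalogue, and 5 lower, 2.25% against 1.47%. At 12 h of cold, 6 were higher (2.70% against 5.73%) and 5 lower (2.25% against 1.4%). In heat, 2 were higher at 3 h (0.901% against 1.17%) and 3 lower (1.35% against 1.32%). At 12 h of heat 11 were higher (4.95% against 4.92%) and 5 lower (2.25% against 1.4%). In salt, 3 were higher at 3 h (1.35% against 3.45%) and 6 lower (2.70% against 2.06%). At 12 h of salt 18 were higher (8.11% against 7.64%) and 3 lower (1.35% against 1.17%). In drought, 3 were higher at 3 h (1.35% against 3.23%) and 5 lower (2.25% against 1.62%). At 12 h of drought 23 were higher (10.4% against 9.4%) and 4 lower (1.80% against 1.32%). The share called higher was under the catalogue's in 4 libraries (cold at 12 h, and heat, salt and drought at 3 h) and above it in the other 4. The share called lower was above the catalogue's in 8 of 8, though these calls come from the same few loci against the same control library. None of these differences was tested. Without a threshold, 44 (heat at 3 h) to 75 (drought at 12 h) loci lay above control and 12 to 19 below it. Another 134 (salt at 12 h) to 159 (heat at 3 h) loci were equal to control. Only the 31 loci with a read in control could lie below it, so this split cannot show an effect of stress. The same split over the catalogue was not counted.

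The libraries at 12 h also stood above control as a whole. The reference set was the 59 lncRNAs that held 5 or more reads in each of the 9 libraries. Their median log2 ratio to control was 0.41 and 0.59 in cold (3 h and then 12 h), 0.04 and 0.39 in heat, 0.46 and 0.91 in drought, and 0.14 and 0.75 in salt. With each library rescaled by that median, 9 loci were higher and 6 lower in drought at 12 h, 9 higher and 5 lower in salt at 12 h, and 1 higher and 5 lower in cold at 3 h. The share of calls that were higher thereby moved from 85.2% to 60%, from 85.7% to 64.3% and from 50% to 16.7%. In the other 5 libraries it moved by at most 4.5 percentage points.

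**Figure D3:**
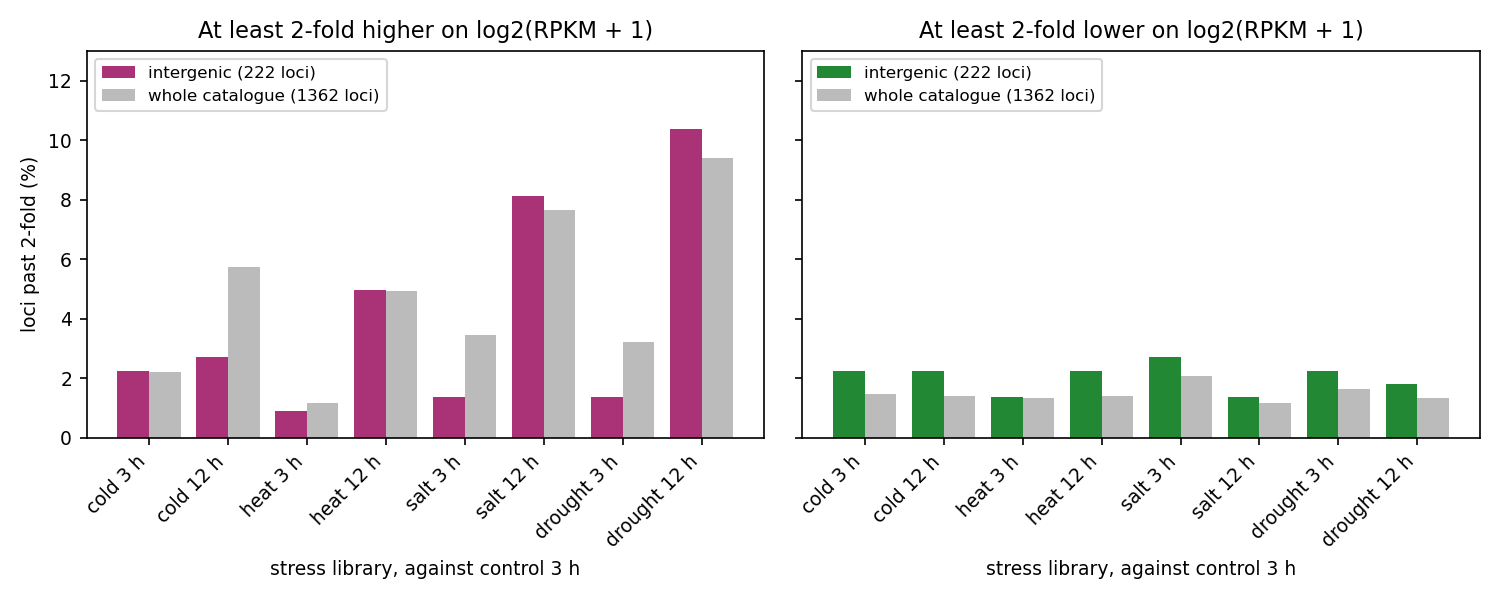
Percentage of the 222 intergenic loci (coloured bars) and of all 1362 loci of the catalogue (grey bars) at least 2-fold higher (left) or lower (right) than the control library on the log2(RPKM + 1) scale, for each of the 8 stress libraries. In drought at 12 h 10.4% of intergenic loci and 9.4% of the catalogue were higher.

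A rule built on the counting interval gave longer lists. By a ratio of at least 2-fold whose exact 95% counting interval excludes 1, with no pseudocount, cold at 3 h had 11 higher and 5 lower intergenic loci, against 5.73% and 2.35% of the catalogue, and 11 and 7 at 12 h, against 11.7% and 2.28%. The same rule gave 7 higher and 5 lower in heat at 3 h (catalogue 4.41% and 2.42%) and 18 and 6 at 12 h (9.99% and 2.5%). It gave 7 and 6 in salt at 3 h (6.83% and 3.01%) and 29 and 4 at 12 h (12.6% and 1.32%). In drought it gave 11 and 5 at 3 h (7.27% and 2.35%) and 30 and 6 at 12 h (16.3% and 1.76%). Higher calls outnumbered lower ones in each of the 8 libraries by this rule, and they did so over the whole catalogue as well. The intergenic counts are of 222 loci. As a share of these, higher calls lay under the catalogue's share in every library but salt at 12 h. Lower calls lay under it at 3 h and above it at 12 h in each stress. None of this was tested.

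Put together, 57 of the 222 loci were called by the 2-fold rule in at least 1 stress library. Of these 50 were higher, where 22.0% of the catalogue was, and 7 lower, where 2.5% of it was, and 0 were called in both directions. Of the 50, 40 held 0 reads in control and the highest control count among them was 8. A control count of 0 is not particular to them. Only 31 of all 222 loci (14.0%) and 22.2% of the other catalogued loci held a read in control. Their highest count in a library had a median of 12 reads and ran from 5 to 64, and 18 of the 50 stayed under 10 reads in every library. Exactly 1 library called 37 of them: 15 in drought at 12 h, 10 in salt at 12 h, 5 in heat at 12 h, 3 in cold at 12 h, and 2 each in cold and drought at 3 h. At 12 h alone 38 were higher, at 3 h alone 4, and at both times 8. The catalogue leaned to 12 h too, and its split by locus was not counted. In cold, heat, salt and drought it had 78, 67, 104 and 128 higher calls at 12 h, against 30, 16, 47 and 44 at 3 h. No RefSeq gene shares the strand with 22 of the 50, and none does with 119 of all 186 predicted intergenic loci.

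**Figure D4:**
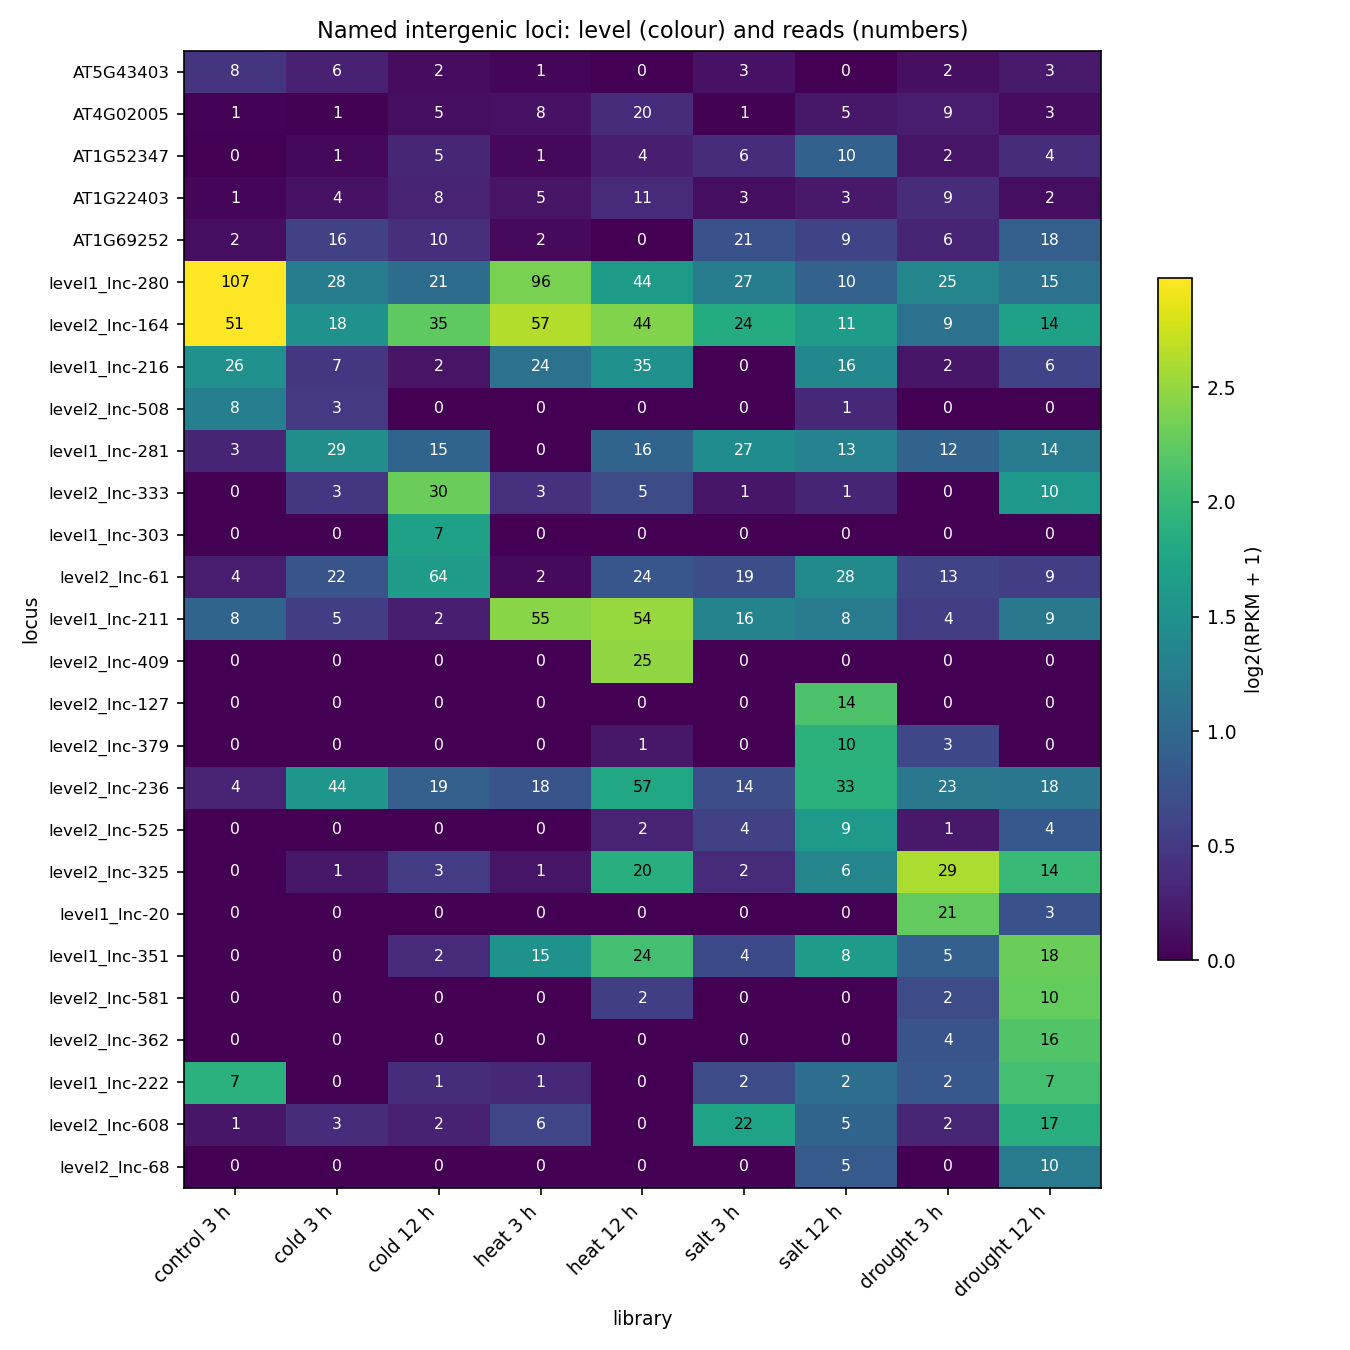
Level of each named locus, as log2(RPKM + 1) in colour, in the 9 libraries (columns), with the recovered reads printed in each cell. The 5 annotated loci are on top, and below them the predicted loci are ordered by the library where their RPKM was highest, from level1_lnc-280 with 107 reads in control to level2_lnc-68 with 10 in drought at 12 h.

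Drought at 3 h held the largest difference to control of any intergenic locus called higher. level2_lnc-325, a 218-nt transcript without introns, held 0 reads in control, 1 and 3 in cold (3 h and then 12 h), 1 and 20 in heat, 29 and 14 in drought, and 2 and 6 in salt. Its RPKM of 5.10 in drought at 3 h stood at least 9.33-fold above a control floor of 3 reads. Such bounds, here and below, take the non-zero count as exact, so they leave out its counting error. The locus was called in 4 libraries: drought at both times, heat at 12 h and salt at 12 h. Cold did not reach that level at either time. The locus overlaps the RefSeq noncoding genes AT3G06005 and AT3G05995 on its strand, and no protein-coding gene lies within 10709 bp of it. It has 2 hits in the genome at 90% identity over 50% of its span, so its values are uncertain.

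level1_lnc-20, of 211 nt, was read in drought alone, with 21 reads at 3 h, 3 at 12 h and 0 in each of the other 7 libraries. The difference to control at 3 h was 2.27 on the log2(RPKM + 1) scale, at least 6.76-fold above the floor. No RefSeq gene overlaps it, and the nearest coding gene, AT1G28510, lies 1015 bp away. level2_lnc-362 was also read in drought alone, but later, with 16 reads at 12 h after 4 at 3 h, which put the later library at least 6.39-fold above the floor. It lies 2842 bp from SWEET11, a gene on the same strand for a sucrose transporter.

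At 12 h of drought the largest differences belonged to level1_lnc-351 and level2_lnc-581. level1_lnc-351 held 0 reads in control, 0 and 2 in cold (3 h and then 12 h), 15 and 24 in heat, 5 and 18 in drought, and 4 and 8 in salt. It was thus high in heat at both times and in salt and drought at 12 h, and near 0 in cold. The difference to control was 2.31 in drought at 12 h (at least 7.19-fold), 2.08 in heat at 12 h (at least 5.87-fold) and 1.52 in heat at 3 h (at least 3.40-fold). The locus has 2 exons, at chr5:25980209-25980621 on the plus strand, and lies wholly within the RefSeq lncRNA AT5G09295 on the same strand. The nearest coding gene, 1633 bp away on that strand, is AGL31, a MADS-box gene of the group that represses flowering. level2_lnc-581 held 0 reads in control, cold, salt and heat at 3 h, 2 in heat at 12 h, and 2 and 10 in drought. It lies wholly within AT5G38865, which RefSeq gives as a gene for an uncharacterized protein on the same strand.

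level1_lnc-211 was the intergenic locus that was higher in heat at both times and was already read in control. It held 8 reads in control, 5 and 2 in cold (3 h and then 12 h), 55 and 54 in heat, 4 and 9 in drought, and 16 and 8 in salt. Heat stood apart from every other library at both times. The ratio to control was 4.67 at 3 h (2.21 to 11.4) and 4.95 at 12 h (2.34 to 12.0), and the difference 1.48 and 1.55 on the log2 scale. The transcript overlaps the RefSeq lncRNA AT4G06225 by 284 bp and the small nucleolar RNA gene AT4G06240 by 6 bp, on the same strand. Small nucleolar RNAs guide the modification of ribosomal RNA and carry no poly(A) tail.

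level2_lnc-409 was the locus with the largest difference in heat at 12 h. It held 25 reads there and 0 in each of the other 8 libraries, heat at 3 h included. Its RPKM of 4.61 was at least 6.11-fold above the control floor, and the log2 difference was 2.49. It is spliced, overlaps no RefSeq gene, has listed CpG methylation, and lies 54236 bp from the nearest coding gene, the farthest of all predicted intergenic loci. It has 8 hits in the genome at 90% identity over 50% of its span, so its values are uncertain.

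Cold at 12 h was the peak of level2_lnc-333, with 0 reads in control, 3 and 30 in cold (3 h and then 12 h), 3 and 5 in heat, 0 and 10 in drought, and 1 and 1 in salt. The difference to control in cold at 12 h was 2.31 (at least 7.92-fold above the floor), and drought at 12 h was the next highest library. It overlaps the pseudogene AT3G30875 on its strand by 177 bp. level1_lnc-303, of 97 nt, was read in cold at 12 h alone, with 7 reads, at least 1.85-fold above the floor. It overlaps 2 noncoding RefSeq genes on its strand.

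At 3 h of cold the largest differences belonged to loci that were high in other stresses too. level2_lnc-236, which overlaps no RefSeq gene and lies 1716 bp from the ubiquitin ligase gene ARI10, has 11 hits in the genome at 90% identity over 50% of its span, the most of the 222 loci, so its values are uncertain. It held 4 reads in control, 44 and 19 in cold (3 h and then 12 h), 18 and 57 in heat, 23 and 18 in drought, and 14 and 33 in salt. All 8 stress libraries were above control, and the ratio was 11.8 in salt at 12 h (4.20 to 45.9), 10.4 in heat at 12 h (3.86 to 39.7) and 8.42 in cold at 3 h (3.06 to 32.2). level1_lnc-281 held 3 reads in control, 29 and 15 in cold, 0 and 16 in heat, 12 and 14 in drought, and 27 and 13 in salt. Its ratio was 7.40 in cold at 3 h (2.29 to 37.9) and 7.19 in salt at 3 h (2.21 to 37.0), while heat at 3 h was empty. level1_lnc-281 lies wholly within the RefSeq lncRNA AT5G04205 on its strand and overlaps AT5G04215 on the other. The nearest coding gene, AT5G26220, 1158 bp away on the opposite strand, encodes a ChaC-like protein, a family that breaks down glutathione.

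The loci with the largest differences in salt at 12 h were close to 0 elsewhere. level2_lnc-127 held 14 reads in that library and 0 in the other 8, a level of 3.42 RPKM and at least 6.68-fold above the control floor. level2_lnc-379 held 10 reads there, 1 in heat at 12 h, 3 in drought at 3 h and 0 in the rest, at least 4.77-fold above the floor. It lies 2058 bp from TTL4, whose protein has tetratricopeptide repeats and a thioredoxin-like domain. At 3 h of salt, level2_lnc-608 went from 1 read in control to 22, a ratio of 17.6 (2.84 to 725), and it held 5 reads at 12 h of salt, 6 and 0 in heat, 3 and 2 in cold, and 2 and 17 in drought. It lies wholly within the coding gene AT5G56220 on the same strand, so reads of that gene cannot be told from its own.

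Only the 7 loci with at least 1 RPKM in control could be called lower, and each of them was lower in at least 1 stress library. level1_lnc-280, the most read intergenic locus with 373 reads, held 107 in control, 28 and 21 in cold (3 h and then 12 h), 96 and 44 in heat, 25 and 15 in drought, and 27 and 10 in salt. The control was its highest library, heat at 3 h came next, and the other 7 lay well below. The RPKM in control was 7.47 times that in salt at 12 h (3.91 to 16.0), 6.44 times that in cold at 12 h (4.01 to 10.8), 5.95 times that in drought at 12 h (3.45 to 11.0) and 3.32 times that in heat at 12 h (2.31 to 4.83). At 3 h it was 5.00 times that in cold (3.27 to 7.87), 4.96 times that in salt (3.23 to 7.87) and 4.43 times that in drought (2.85 to 7.16). The 4-exon transcript overlaps AT5G25756, given by RefSeq as a gene for an uncharacterized protein, by 554 bp on the same strand, and the RefSeq lncRNA AT5G04065 by 866 bp. It has 3 hits in the genome at 90% identity over 50% of its span, so its values are uncertain.

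level2_lnc-164 held 51 reads in control, 18 and 35 in cold (3 h and then 12 h), 57 and 44 in heat, 9 and 14 in drought, and 24 and 11 in salt. It was lower in drought and salt at both times and in cold at 3 h, and in heat its RPKM was 5.20 and 4.33 beside 6.84 in control. Its control level was 5.87 times that in drought at 3 h (2.86 to 13.6) and 3.24 times that in salt at 12 h (1.67 to 6.89). The transcript lies within the RefSeq lncRNA AT1G09797 on the same strand and AT1G09793 on the other, 754 bp from GRF13, a gene for a 14-3-3 protein.

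level1_lnc-216 held 26 reads in control, 7 and 2 in cold (3 h and then 12 h), 24 and 35 in heat, 2 and 6 in drought, and 0 and 16 in salt. Heat again lay near control by RPKM, at 1.16 and 1.83 beside 1.85, and salt at 3 h was empty, at least 10.8-fold lower than control. It overlaps the RefSeq lncRNA AT4G06810 by 488 bp on its strand. level1_lnc-222, with only 102 nt of exon, held 7 reads in control, 0 and 1 in cold, 1 and 0 in heat, 2 and 7 in drought, and 2 and 2 in salt. It was lower in 6 libraries, at least 3.05-fold in cold at 3 h, but drought at 12 h lay above control by RPKM. In 2 of the 6 the counting interval of the ratio of control to stress includes 1, at 0.691 to 35.8 in drought at 3 h and 0.834 to 43.2 in salt at 3 h. It lies wholly within AT4G03085, an uncharacterized RNA of RefSeq on its strand. level2_lnc-508 held 8 reads in control, 3 and 0 in cold, 0 and 0 in heat, 0 and 0 in drought, and 0 and 1 in salt. It was lower in 6 libraries too, by at least 3.92-fold in heat at 3 h and at least 2.23-fold in drought at 12 h. The remaining 2 of the 7, level1_lnc-242 and level1_lnc-44, are named here after their values were seen: the first held 7 reads in control, 1 in drought at 3 h and 0 elsewhere, and the second was called lower in heat at 12 h alone.

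level2_lnc-61 completes the 5 most read predicted loci, with 185 reads over up to 9 exons. It held 4 reads in control, 22 and 64 in cold (3 h and then 12 h), 2 and 24 in heat, 13 and 9 in drought, and 19 and 28 in salt. Cold at 12 h was its highest library by RPKM, at 12.7 times the control (4.71 to 47.9), and heat at 3 h its lowest. It overlaps AT1G32575, a gene for an uncharacterized protein, on the same strand.

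Time could be tested across the stresses, since each was sampled at 3 h and 12 h. In a limma fit of log2(RPKM + 1) on the 8 stress libraries with the stress as a block, 147 loci of the catalogue with at least 1 RPKM in 2 or more of the libraries were tested, 17 of them intergenic. At an adjusted p under 0.05 (Benjamini-Hochberg over the 147), 0 loci of the catalogue were called higher (0% of those tested) and 0 lower (0%). Before adjustment, 34 loci of the catalogue had p under 0.05 with a higher level at 12 h (23.1% of those tested) and 0 with a lower one (0%), and 4 of the 17 intergenic loci were among the 34. The median difference over the 17 was 0.38, beside 0.45 over all 147. With each library rescaled by its median shift, 113 loci were tested, 15 of them intergenic. In that fit 11 loci had an unadjusted limma p under 0.05 with a higher level at 12 h and 1 with a lower one. Among the intergenic loci these numbered 2 and 1, and the median difference was 0.15, beside 0.26 over all 113.

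The 4 intergenic loci lay higher at 12 h in 4 of 4 stresses by RPKM, and none passed the correction. In salt level2_lnc-333 held 1 read at each time, so there its higher RPKM at 12 h comes from the lower depth of that library alone. level2_lnc-24 held 2 reads in control, 13 and 37 in cold (3 h and then 12 h), 1 and 23 in heat, 9 and 14 in drought, and 8 and 24 in salt. Its log2 difference between 12 h and 3 h was 1.01 (SE 0.29, limma adjusted p = 0.172). It overlaps the RefSeq gene AT1G15085, for an uncharacterized protein on the same strand, by 361 bp and was one of the 3 loci called higher than control in 4 libraries, all at 12 h. level1_lnc-29 held 0 reads in control, 0 and 11 in cold, 10 and 37 in heat, 4 and 39 in drought, and 3 and 6 in salt. The difference was 1.00 (SE 0.31, limma adjusted p = 0.172), and the transcript overlaps the pseudogene AT1G33660 over 1303 bp. For level1_lnc-351 the difference was 0.82 (SE 0.30, limma adjusted p = 0.183) and for level2_lnc-333 0.96 (SE 0.36, limma adjusted p = 0.183). level1_lnc-280 lay lower at 12 h in 4 of 4 stresses, by -0.38 (SE 0.30, limma adjusted p = 0.424).

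**Figure D5:**
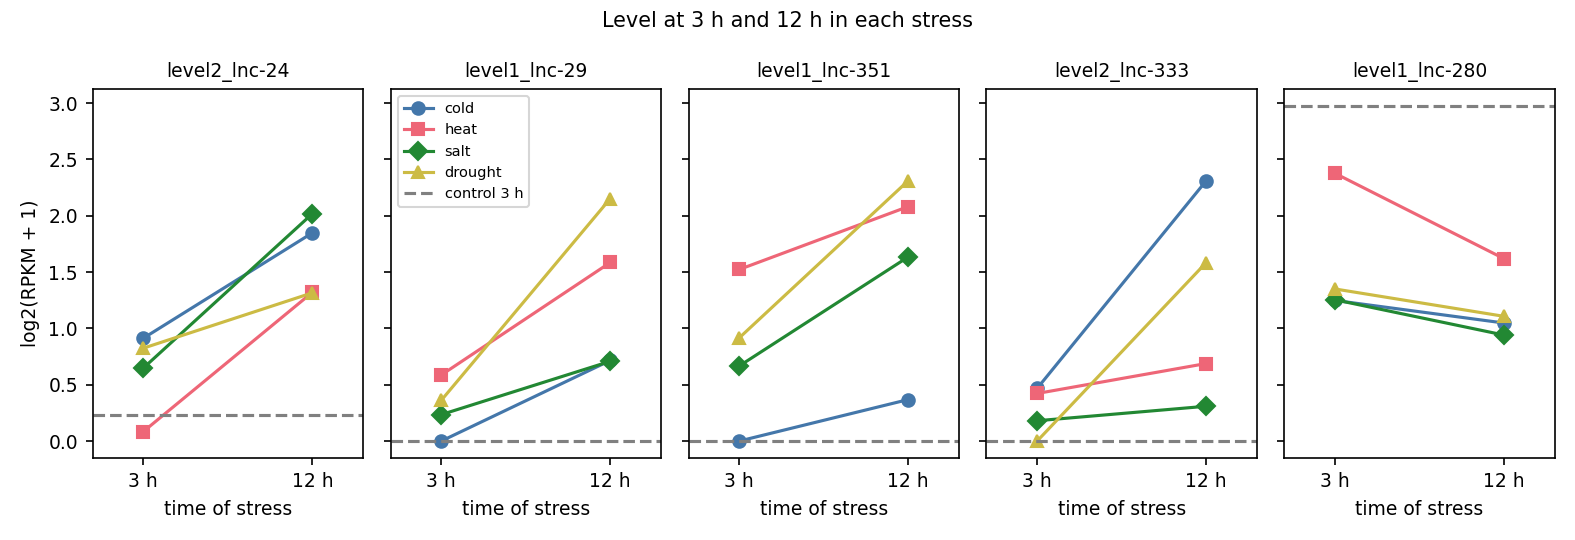
Level of 5 intergenic loci as log2(RPKM + 1) at 3 h and 12 h in each of the 4 stresses (lines), with the control library at 3 h as a dashed line. The first 4 loci lie higher at 12 h in all 4 stresses, and level1_lnc-280 lies lower at 12 h and below control in all of them.

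The authors' deposited table of stress-responsive lncRNAs names 38 of the predicted intergenic loci. Of these, 16 are listed in the Poly(A)- class and 22 in the Poly(A)+ class. For the 16, the authors' deposited table gives salt for 9, drought for 7, cold for 3 and heat for 3. In the libraries analysed here, 14 of the 16 held 0 reads in control, and 12 stayed under 10 reads in every library of a listed stress. Both are common in the whole set. Of all 222 intergenic loci only 31 held a read in control (14.0%), and 49 reached 10 reads in any library (22.1%). By reads in a listed stress, the highest were level2_lnc-362 with 16 in drought, level2_lnc-127 with 14 in salt, level2_lnc-379 and level2_lnc-68 with 10 each, and level2_lnc-525 with 9, a count it shares with level2_lnc-546 and level2_lnc-67. The authors' deposited table lists level2_lnc-68 for drought and salt, and it held 0 reads in control, cold, heat and both 3 h libraries of salt and drought, 5 in salt at 12 h and 10 in drought at 12 h. level2_lnc-525, in the authors' deposited table for the same 2 stresses, held 2 reads in heat at 12 h, 4 and 9 in salt at 3 h and 12 h, 1 and 4 in drought, and 0 in the rest.

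Some of these loci are near neighbours. Within 1000 bp of each other lie 13 pairs of intergenic loci, which join 21 loci in all. level2_lnc-66, level2_lnc-67 and level2_lnc-68 follow each other on the same strand of chromosome 1 with gaps of 298 and 496 bp, and held 17, 40 and 15 reads. level2_lnc-532, level2_lnc-533 and level1_lnc-279 do so on chromosome 5 with gaps of 743 and 449 bp, and held 34, 13 and 11 reads. In RefSeq the first 3 lie wholly within the same gene, AT1G09185, given as an uncharacterized RNA on their strand, and level2_lnc-532 and level2_lnc-533 lie wholly within AT5G25755, a gene for an uncharacterized protein on theirs. Such neighbours were not treated as independent. The median distance from a locus to the nearest coding gene was 1138.5 bp for the annotated and 1070 bp for the predicted intergenic loci.

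The authors' chromatin lists differ between the sets. Of the annotated intergenic loci 41.7% have listed H3K4me3, a mark of active promoters, and 41.7% H3K9Ac, against 60.3% and 57.8% of the other annotated lncRNAs. Of the predicted ones 8.06% and 6.45% do, against 19.4% and 18.2% of the other predicted lncRNAs, and 61.8% have no listed mark at all. Of the other predicted lncRNAs 45.3% have none, but the share is 61.6% in predicted transposable element loci and 75.0% in the predicted intergenic loci left out. H3K27me3, the mark of Polycomb repression, goes the other way, with 19.4% of the annotated (7 of 36) and 18.3% of the predicted intergenic loci listed, against 12.4% and 10.9% of the others. Among the annotated classes it is 23.1% in transposable element loci, 33.3% in the intergenic loci left out, 16.7% in small RNA precursors, 10.3% in cis and 8.70% in antisense. The highest other predicted class is cis, at 13.3%. Listed CpG methylation covers 19.4% of the annotated and 19.9% of the predicted intergenic loci, against 39.1% of the other annotated and 34.3% of the other predicted lncRNAs. In the predicted cis class it is 5.65%, and in the predicted small RNA precursors 93.4%. The sources used here do not give the plants behind these lists, and the shares describe the catalogue without a test.

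The authors' class of polyadenylation is given in the same descriptive way. It names 39 of the 186 predicted intergenic loci Poly(A)- (21.0%), against 9.09% of the other predicted lncRNAs, of which 256 are antisense loci that are all without a class. Another 41 of the predicted intergenic loci are called Poly(A)+, 50 bimorphic, and 56 have no class. The Poly(A)- share is 15.2% in predicted transposable element loci and 14.1% in predicted cis loci. It is 12.5% in the predicted intergenic loci left out and 12.1% in predicted small RNA precursors. Of the annotated intergenic loci 1 is called Poly(A)- (2.78%), 21 Poly(A)+ and 10 bimorphic, and 4 have no class. None of this was tested. None of the 222 loci had a deposited randfold p-value under 0.05, the lowest being 0.333, where a low value marks a fold more stable than shuffled sequence. The other loci had none under 0.05 either, with a lowest value of 0.381 among the annotated and 0.143 among the predicted.

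The 250 bases before the start were searched on both strands for short motifs known from plant promoters. The core of the abscisic acid response element, ACGTG, stood in 13 of the 36 annotated windows (36.1%) and in 35 of the 186 predicted ones (18.8%), against 22.9% of the windows before all 27443 nuclear protein-coding genes. CCGAC, the core of the cold and drought element CRT, stood in 3 (8.33%) and 15 (8.06%) windows, against 12.0% of coding genes. The heat element GAANNTTC stood in 0 and 16 (8.60%) against 9.55%, the telo box AAACCCTA in 0 and 7 (3.76%) against 4.49%, and the evening element AAATATCT in 1 (2.78%) and 3 (1.61%) against 4.79%. The upstream element of plant small nuclear RNA genes, known as USE, stood in 0 of 222, against 0.113% of coding genes. Among the 50 loci called higher in some stress library, ACGTG stood in 14 windows (28%), CCGAC in 6 (12%), the heat element in 1 (2%), and the telo box, the evening element and USE in 0. A match says only that the letters are there, and these shares were not tested.

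Windows are shown for AT1G69252, the most read annotated locus, for level1_lnc-280, the most read predicted one, and for the 3 loci called higher in 4 libraries. Capitals mark every match to the motifs above, on either strand. AT1G69252 and level1_lnc-351 hold ACGTG on both strands at the same place, level2_lnc-325 holds it on the reverse strand, level1_lnc-280 holds the heat element, and level2_lnc-24 holds none of the motifs.
AT1G69252: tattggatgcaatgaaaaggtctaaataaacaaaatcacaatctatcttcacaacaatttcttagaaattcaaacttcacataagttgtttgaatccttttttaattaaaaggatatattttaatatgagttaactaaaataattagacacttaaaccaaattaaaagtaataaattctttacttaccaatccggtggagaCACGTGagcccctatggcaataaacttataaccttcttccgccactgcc
level1_lnc-351: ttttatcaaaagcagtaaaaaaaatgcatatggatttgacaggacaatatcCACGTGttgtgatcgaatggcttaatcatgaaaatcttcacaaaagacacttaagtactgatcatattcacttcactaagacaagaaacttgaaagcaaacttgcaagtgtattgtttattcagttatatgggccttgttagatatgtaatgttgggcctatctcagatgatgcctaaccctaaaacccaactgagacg
level2_lnc-325: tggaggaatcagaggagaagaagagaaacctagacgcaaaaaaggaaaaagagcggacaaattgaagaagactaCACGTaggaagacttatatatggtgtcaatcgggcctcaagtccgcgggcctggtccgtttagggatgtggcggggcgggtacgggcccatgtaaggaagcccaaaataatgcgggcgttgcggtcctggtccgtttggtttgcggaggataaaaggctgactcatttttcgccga
level2_lnc-24: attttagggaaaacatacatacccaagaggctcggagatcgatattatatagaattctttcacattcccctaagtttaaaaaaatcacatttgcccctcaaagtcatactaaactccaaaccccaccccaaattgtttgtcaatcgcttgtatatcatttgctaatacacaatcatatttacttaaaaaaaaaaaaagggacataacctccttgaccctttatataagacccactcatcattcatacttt
level1_lnc-280: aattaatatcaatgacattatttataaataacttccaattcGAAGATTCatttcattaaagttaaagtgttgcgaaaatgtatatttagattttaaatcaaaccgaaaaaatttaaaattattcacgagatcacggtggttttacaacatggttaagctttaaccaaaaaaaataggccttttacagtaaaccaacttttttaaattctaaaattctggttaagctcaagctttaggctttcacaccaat

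In TAIR10.1 coordinates these windows are chr1:26036320-26036569 (plus strand), chr5:25979959-25980208 (plus strand), chr3:11757029-11757278 (plus strand), chr1:5191883-5192132 (plus strand) and chr5:8963878-8964127 (minus strand). Of the 3 loci called higher in 4 libraries, level1_lnc-351 and level2_lnc-325 hold ACGTG and level2_lnc-24 does not.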

How the data were processed

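Per the file headers, the deposited values are RPKM, for 9 libraries of single-end 100 nt reads. Per the submitters' processing notes the tools named are Cufflinks, TopHat2 2.0.8 and Bowtie 0.12.9, with the build TAIR10. The sources used here do not give the counting rule. Other deposited columns give a blastn bit score, a structure conservation score, chromatin and methylation scores and a randfold p-value per transcript. Another 24 columns of per-sample values were not used.

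Reads were recovered from RPKM, exon length and depth (tolerance 0.02 reads). Positions were matched to RefSeq's TAIR10.1, whose nuclear coordinates fit: of 384 annotated loci, 203 had the same start and end once 1 was added to the deposited start. Calls used log2(RPKM + 1) and a 2-fold threshold, intervals were exact at 95%, and bounds used a floor of 3 reads per library. A bound took the other count as exact, so it is not the lower end of a 95% interval. Time was fitted with limma 3.58.1 in R 4.3.3, and copies were found with blastn 2.17.0. The steps were tested on simulated data. Where nothing says that libraries came from separate cultures, p-values measure only the spread between these libraries.

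The named loci are the 5 annotated and 5 predicted loci with most reads, the 2 higher and 2 lower with the largest differences in each comparison, and the 5 Poly(A)- loci of the authors' list with most reads. The loci, motifs and lists were chosen with earlier results of these data known.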

Additional observations from a re-analysis of the deposited data

How the results depend on the processing

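Numbers of intergenic loci called against control moved most with the pseudocount, and each setting below lists higher and then lower calls at 3 h and at 12 h. With 0.1 in place of 1 RPKM there were 31 and 9, then 45 and 9, in cold, 25 and 9, then 52 and 10, in heat, 44 and 10, then 64 and 9, in drought, and 45 and 10, then 65 and 11, in salt. With no pseudocount and a counting interval that excludes 1, higher calls numbered 11 and 11 in cold, 7 and 18 in heat, 11 and 30 in drought, and 7 and 29 in salt, and lower calls in heat at 3 h numbered 5. At 4-fold there were 0 and 0, then 1 and 0, in cold, 0 and 0, then 2 and 0, in heat, 2 and 0, then 6 and 0, in drought, and 0 and 0, then 1 and 1, in salt. Asking for 10 reads in 1 of the 2 libraries left 3 and 3, then 4 and 2, in cold, 2 and 0, then 10 and 2, in heat, 3 and 3, then 15 and 2, in drought, and 3 and 3, then 10 and 2, in salt. Rescaling by the median shift left 1 higher in cold at 3 h, 9 higher and 5 lower in salt at 12 h and 9 higher in drought at 12 h, and its other 12 counts stayed within 1.5 times. With the dropped intergenic loci included, 10 were higher in cold at 12 h and 6 in drought at 3 h. With the annotated values as printed, 5 were lower in heat at 3 h, and 5 higher in salt and in drought at 3 h. Loci with no RefSeq gene on their strand, an alternative chosen after seeing the data that counts fewer loci, gave 3 and 0, then 0 and 1, in cold, 0 and 1, then 3 and 2, in heat, 1 and 1, then 9 and 1, in drought, and 0 and 1, then 9 and 0, in salt. Without level1_lnc-280, also chosen after seeing the data, the summed level moved past its counting interval in control (6.63 RPM) and heat at 3 h (9.31 RPM) and stayed within it in the other 7 libraries. The share of loci read was 22.1% when 10 reads in 1 library were asked for.

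The time fit called 0 intergenic loci under each of its 8 alternatives, with or without the stress block and in each leave-one-out fit, and the smallest adjusted p of an intergenic locus ran from 0.0822 to 0.577. No paired analysis by replicate was possible because each condition has 1 library. No counting interval replaces a replicate, 1 read at 300 nt is worth 0.0900 to 0.190 RPKM, and most loci lie within a few reads of 0.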

Other observations

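The authors' deposited table of gene ontology terms, which they assigned to lncRNAs through co-expression, holds 32 of the 222 intergenic loci, 3 of them annotated. They stand in 299 of its 338 terms. level1_lnc-279 stands in 256 terms, the most of any intergenic locus, on 11 reads in the libraries used here, and level1_lnc-258 in 218 on 20 reads. level2_lnc-440 stands in 41 terms and held 0 reads in the 9 libraries.

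Some intergenic loci have near copies elsewhere in the genome. At 95% identity over 90% of the span, 10 predicted loci and 1 annotated locus had more than 1 copy, with at most 3. At 90% identity over 50% of the span, 30 predicted and 8 annotated loci had more than 1 hit, and held 1003 and 31 reads. level2_lnc-236 has 11 such hits and level2_lnc-409 has 8, the most of the 222 loci. Of the other named loci, level1_lnc-280 and level1_lnc-303 have 3 each, and level2_lnc-325 and level2_lnc-68 have 2 each. The sources used here do not say how reads that fit several places were counted, so the values of these loci are uncertain.

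level1_lnc-298 and level1_lnc-312 were singled out after their values were seen. level1_lnc-298, which overlaps the gene AT5G37247 on its strand, held 35 reads in cold at 12 h, 1 in salt at 12 h, 1 in drought at 3 h and 0 in the other 6 libraries. level1_lnc-312 covers 84 bp of the small nucleolar RNA gene AT5G06305 and held 24 reads in drought at 12 h, against 0 in control and at most 3 in the other stress libraries.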
